A study of Mus musculus with 8 samples.

Results

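The genes described here are the aminoacyl-tRNA synthetases of the cytosol and of mitochondria, with the 3 scaffold proteins of the multisynthetase complex, measured in mouse pancreas after deletion of Sel1L. They were chosen by name, as every gene symbol made of 1 letter and the stem ars with or without a final 1 or 2, together with Farsa, Fars2, Aimp1, Aimp2 and Eef1e1. The names gave 35 of the 18820 genes tested, of which 16 are cytosolic synthetases, 16 are mitochondrial synthetases (symbols ending in 2) and 3 are scaffold genes. Aars and Farsb had features that carried a second gene symbol and were left out, and Eprs does not match the name rule and is treated with the neighbouring genes of the pathway.

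Gene expression was profiled on 8 whole-transcript arrays, 4 of Sel1L knockout and 4 of wild type pancreas, all of mice labelled C57BL/6J. Both groups were homozygous for a Sel1l allele with floxed exon 6, per the labels' protocols. The knockout animals also carried a fusion of Cre recombinase to the estrogen receptor under an actin promoter, which their littermates called wild type lacked. Both groups received tamoxifen (5 μl per g of body weight of a 5 mg/ml solution) on each of 3 days at an age of 8 to 20 weeks, with the time of sampling after injection not stated. The actin promoter is not restricted to pancreas, and because the controls lacked Cre, deletion of Sel1l and active Cre cannot be told apart. The labels do not say that the numbered samples are separate animals, so the spread behind the p-values may be technical.

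Aminoacyl-tRNA synthetases join each amino acid to its transfer RNA, the step that sets the genetic code for the ribosome. Cytosol and mitochondria mostly use enzymes of separate nuclear genes, while Gars and Kars each encode the enzyme of both compartments. In the cytosol several of the enzymes are held together with the scaffold proteins in the multisynthetase complex, and the others act outside it. The acinar cell of the exocrine pancreas makes secretory protein at a very high rate and so depends heavily on charged tRNA. Sel1L works with the ubiquitin ligase Hrd1 in the degradation of misfolded proteins of the endoplasmic reticulum (ER). Several cytosolic synthetase genes are known targets of ATF4, the transcription factor of the integrated stress response.

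Promoter sequence is shown first because ATF4 binds a short element whose core, TGATGNAA, can be looked for in these genes. RefSeq windows (GRCm38.p6, 250 bases before to 50 bases after the start of the gene) were at hand for 26 of the 35 members. The core was present on either strand in 4 of the 26, Gars, Iars, Tars and Yars, all of them among the 9 cytosolic synthetases with a window. It was present in 0 of the 14 mitochondrial and 0 of the 3 scaffold genes with a window, and in 3.97% of all 32851 windows. The 4 stretches are printed so that they can be set beside the changes below, with the core in capitals and 11 bases on each side, on the strand on which the core reads as written.
Gars (chr6:55037960-55037989, minus strand, core at positions -30 to -23 from the start): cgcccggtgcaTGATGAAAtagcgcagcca
Iars (chr13:49682126-49682155, minus strand, core at positions 8 to 15 from the start): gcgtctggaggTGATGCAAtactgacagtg
Tars (chr15:11399655-11399684, plus strand, core at positions -15 to -8 from the start): agctaaccagcTGATGCAAcgggactcctg
Yars (chr4:129189895-129189924, plus strand, core at positions 4 to 11 from the start): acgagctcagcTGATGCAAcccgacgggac

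A core bound by ETS transcription factors, CCGGAAG, was present in 11 of the 26 members with a window and in 8.86% of all windows. The windows of members were richer in G and C, with a median of 58.0% against 52.7% over all windows, and the share was not matched for this. The 11 genes were Aimp1, Aimp2, Cars2, Farsa, Gars, Kars, Mars1, Mars2, Rars2, Sars and Sars2. In the comparison below 6 of them were higher, 1 was lower and 4 did not pass, beside 14 higher and 3 lower among all 35 members, and nothing is read from these counts about the core. The stretch of Rars2 and that of Mars1 are printed as one gene that rose and one that fell, with the core in capitals.
Rars2 (chr4:34614942-34614970, minus strand): ccgcctccgcgCCGGAAGtcgcctctgct
Mars1 (chr10:127311798-127311826, plus strand): accaacgagacCCGGAAGttgacggtgcg
The consensus of the ER stress response element, the core TGACGTGG bound by XBP1 and ATF6, and the palindromic core of NRF1 were present in 0 of the 26 on either strand, and in 0.119%, 0.676% and 0.971% of all windows.

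Sel1l itself checked the labels. Its deposited values, on a log2 scale, were 11.68, 11.66, 11.70 and 11.45 on the knockout arrays, against 12.37, 12.38, 12.38 and 12.39 on the wild type arrays. The groups did not overlap, and the difference was -0.76 (SE 0.0788, limma adjusted p = 0.000196).

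Over the 18820 genes, Pearson correlations between arrays, taken across genes that are not independent replicates, were 0.992 to 0.995 within the knockout group, 0.979 to 0.992 within the wild type group and 0.968 to 0.983 between groups. Wild type replicate 2 stood apart in cell type markers, with a macrophage list mean of 5.92, where the knockout arrays ranged from 7.44 to 8.48 and the highest wild type array reached 8.70. It also held the highest wild type value for 16 of the 35 members. Knockout replicate 1 held the lowest knockout value for 24 of the 35. Acinar markers identified the tissue, at a list mean of 12.22 to 12.33 on knockout and 12.43 to 12.63 on wild type arrays, and 2 of the 4 measured were lower in the knockout. Of 4 endothelial markers 2 were higher (list mean 7.41 to 7.64 on knockout arrays and 7.10 to 7.37 on wild type arrays). Of the islet list of alpha, delta and PP cells 1 of 4 was higher and 1 lower, and none of the measured duct, beta cell, macrophage, lymphocyte, stellate cell or adipocyte markers passed the test. The part of these marker shifts in the results below was not tested, and in bulk tissue fewer cells of a type and less RNA per cell cannot be told apart.

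Of 16 cytosolic synthetases 7 rose, 3 fell and 6 did not pass the test (limma with Benjamini-Hochberg adjustment over all genes, adjusted p under 0.05). Of 16 mitochondrial synthetases 6 rose, 0 fell and 10 did not pass it. The difference between the sets was not tested. Of the 3 scaffold genes Aimp1 rose. Over all genes tested 28.7% passed, 16.1% as higher and 12.6% as lower. Without wild type replicate 2 the cytosolic counts were 7 higher and 4 lower, Wars being added, and the mitochondrial counts 6 and 0.

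All 16 cytosolic genes lay above the median level of the genes tested, and so did 14 of the 16 mitochondrial ones. Among genes above that level 38.6% passed, 27.9% as higher and 10.8% as lower, with a median difference of 0.13. The share called was 37.5% in the mitochondrial set, near that background, and 62.5% in the cytosolic set. The cytosolic set read higher, with array means of 9.12 to 9.30 against 6.49 to 6.81 for the mitochondrial set. A background matched to these levels was not computed, so the shares of the sets cannot be set against each other. The median difference was 0.15 for the cytosolic set and 0.14 for the mitochondrial set, against -0.04 over all genes. The 14 mitochondrial genes above the median level had a median of 0.19. Quantile normalization, centring and cyclic loess lowered both medians, to between 0.01 and 0.07, and turned the share of higher among all calls to 42.9%, 36.3% and 48.1%, where it was 56.0% on the deposited values. The count of mitochondrial rises fell to 2 after quantile normalization and to 3 after cyclic loess. The 3 cytosolic falls passed under all 16 other settings run, as did 5 of the 7 cytosolic rises, the rise of Aimp1 and 2 of the 6 mitochondrial rises.

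**Figure D1:**
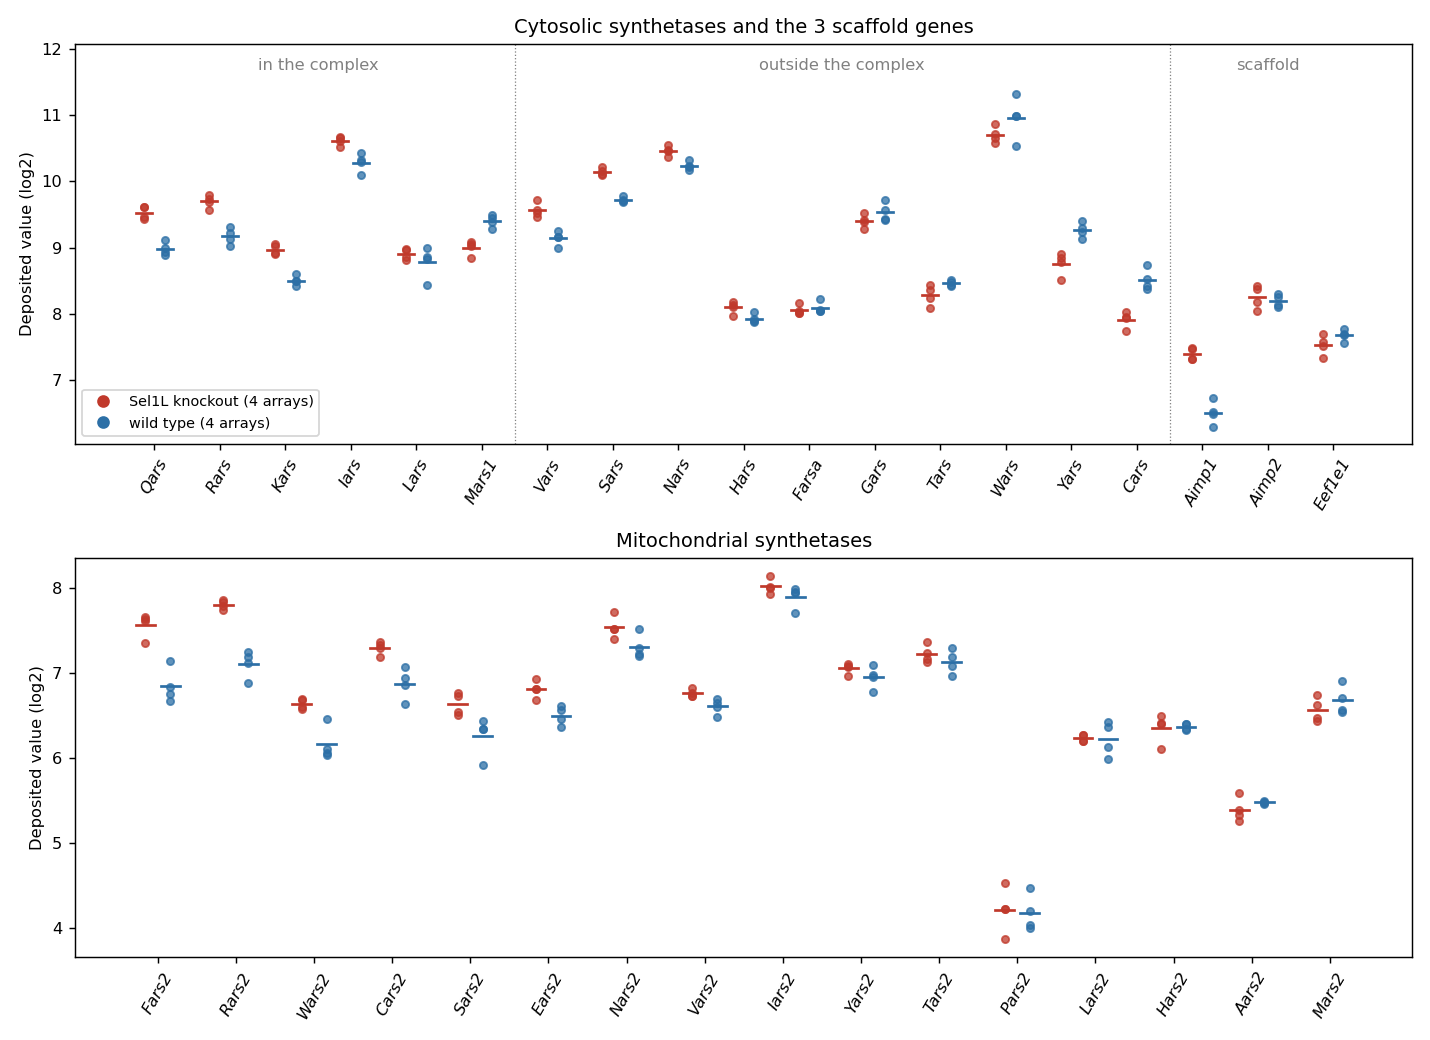
Deposited log2 value of each of the 35 genes on each array, with the 4 Sel1L knockout arrays (red) left of the 4 wild type arrays (blue) and short lines for group means. The groups are apart for 18 of the 35 genes, among them Qars, Rars, Kars, Yars, Cars, Aimp1, Fars2 and Rars2. Over all genes tested the groups are apart for 32.2%, and no such share was computed for genes above the median level. For Lars, Wars and Lars2 the wild type spread covers the knockout values.

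In the multisynthetase complex, 4 of the 6 measured synthetases rose and Mars1 fell. Among genes above the median level, where all cytosolic synthetases lay, 27.9% passed as higher and 10.8% as lower. Qars, the glutaminyl-tRNA synthetase, read 9.45, 9.61, 9.61 and 9.44 on the knockout arrays, against 8.88, 8.996, 9.11 and 8.94 on the wild type arrays. Every knockout value was above every wild type value, and the rise of 0.55 (SE 0.0842, adjusted p = 0.00159), or 1.46-fold, was the largest of the cytosolic set. Rars, which charges arginine tRNA, read 9.57, 9.69, 9.80 and 9.73 on the knockout arrays, against 9.14, 9.02, 9.22 and 9.31 on the wild type arrays. It rose by 0.52 (SE 0.0892, adjusted p = 0.00265), again with groups apart.

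Kars, whose gene encodes the lysyl enzyme of both cytosol and mitochondria, read 8.91, 9.02, 8.90 and 9.06 on the knockout arrays, against 8.41, 8.60, 8.50 and 8.49 on the wild type arrays. The groups did not overlap and the rise was 0.47 (SE 0.0777, adjusted p = 0.00227). Iars, the isoleucyl enzyme, read 10.52, 10.60, 10.65 and 10.67 on the knockout arrays, against 10.09, 10.33, 10.29 and 10.43 on the wild type arrays. Its smaller rise of 0.33 (SE 0.0892, adjusted p = 0.0233) also left the groups apart. A second feature of Iars rose by 0.24 (adjusted p = 0.0488 over all features with 1 symbol). The call on Iars was lost after centring, after cyclic loess and without knockout replicate 2, 3 or 4 (adjusted p = 0.0760, 0.0600, 0.0547, 0.0646 and 0.0617).

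Mars1, the methionyl enzyme, went the other way. It read 8.85, 9.08, 9.02 and 9.05 on the knockout arrays, against 9.38, 9.49, 9.28 and 9.45 on the wild type arrays, all knockout values being lower. The difference was -0.40 (SE 0.0847, adjusted p = 0.00763). Lars, the leucyl enzyme, read 8.86, 8.96, 8.99 and 8.81 on the knockout arrays, against 8.44, 8.87, 8.83 and 8.99 on the wild type arrays. These overlapped, and the difference of 0.12 did not pass (adjusted p = 0.446). Eprs, another large subunit of the complex, carries the glutamyl and prolyl activities in 1 chain and falls outside the name rule. It read 9.96, 9.99, 10.04 and 9.90 on the knockout arrays, against 8.82, 9.15, 9.21 and 9.16 on the wild type arrays. Dars, which also belongs to the complex, was not among the members.

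The scaffold genes did not move together. Aimp1, which is also released from cells as the precursor of the cytokine EMAP II, read 7.32, 7.47, 7.32 and 7.49 on the knockout arrays, against 6.29, 6.49, 6.51 and 6.72 on the wild type arrays. The groups were far apart, with a rise of 0.90 (SE 0.101, adjusted p = 0.000311), or 1.86-fold, the largest change among the 35 members. Aimp2 read 8.05, 8.37, 8.18 and 8.42 on the knockout arrays, against 8.10, 8.31, 8.26 and 8.14 on the wild type arrays, which overlapped (difference 0.05, adjusted p = 0.716). Eef1e1, also known as AIMP3, read 7.33, 7.51, 7.57 and 7.69 on the knockout arrays, against 7.56, 7.68, 7.70 and 7.77 on the wild type arrays. Its difference of -0.15 did not pass on the deposited values (adjusted p = 0.248) but did after quantile normalization (-0.31, adjusted p = 0.0373) and cyclic loess (-0.29, adjusted p = 0.0411).

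Among the 10 cytosolic synthetases that act outside the complex, 3 rose, 2 fell and 5 did not pass. Of genes above the median level 27.9% passed as higher and 10.8% as lower. Vars, the valyl enzyme, read 9.47, 9.72, 9.56 and 9.52 on the knockout arrays, against 9.16, 8.99, 9.25 and 9.15 on the wild type arrays. It rose by 0.43 (SE 0.0884, adjusted p = 0.00666) with groups apart. Sars, the seryl enzyme, read 10.10, 10.16, 10.22 and 10.11 on the knockout arrays, against 9.70, 9.77, 9.69 and 9.72 on the wild type arrays. The spread within each group was small beside the rise of 0.43 (SE 0.0697, adjusted p = 0.00218). Nars, the asparaginyl enzyme, read 10.47, 10.37, 10.54 and 10.48 on the knockout arrays, against 10.22, 10.32, 10.18 and 10.23 on the wild type arrays. This rise of 0.23 (adjusted p = 0.0454) lay at the threshold and was lost in 11 of 16 other settings, including 7 of the 8 that left out an array, with adjusted p between 0.0139 and 0.189 over all settings.

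Cars, the cysteinyl enzyme, showed the largest fall. It read 7.74, 7.95, 7.94 and 8.03 on the knockout arrays, against 8.42, 8.74, 8.52 and 8.38 on the wild type arrays. The groups were apart and the difference was -0.60 (SE 0.103, adjusted p = 0.00270), a 1.52-fold fall. Yars, the tyrosyl enzyme, read 8.51, 8.78, 8.85 and 8.90 on the knockout arrays, against 9.23, 9.41, 9.13 and 9.30 on the wild type arrays. Every knockout value was below every wild type value, with a difference of -0.51 (SE 0.105, adjusted p = 0.00709).

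The remaining 5 free enzymes, Hars, Farsa, Gars, Tars and Wars, had differences between -0.25 and 0.17. Wars, the tryptophanyl enzyme, which is also induced by interferon, read 10.66, 10.87, 10.71 and 10.58 on the knockout arrays, against 10.99, 10.54, 11.32 and 10.98 on the wild type arrays. Wild type replicate 2 held the lowest of these values, and the difference of -0.25 (adjusted p = 0.231) became -0.39 without it (adjusted p = 0.0357). Tars, the threonyl enzyme, differed by -0.17 (adjusted p = 0.166) and passed as lower after quantile normalization (-0.28, adjusted p = 0.0446) and cyclic loess (-0.31, adjusted p = 0.0296).

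**Figure D2:**
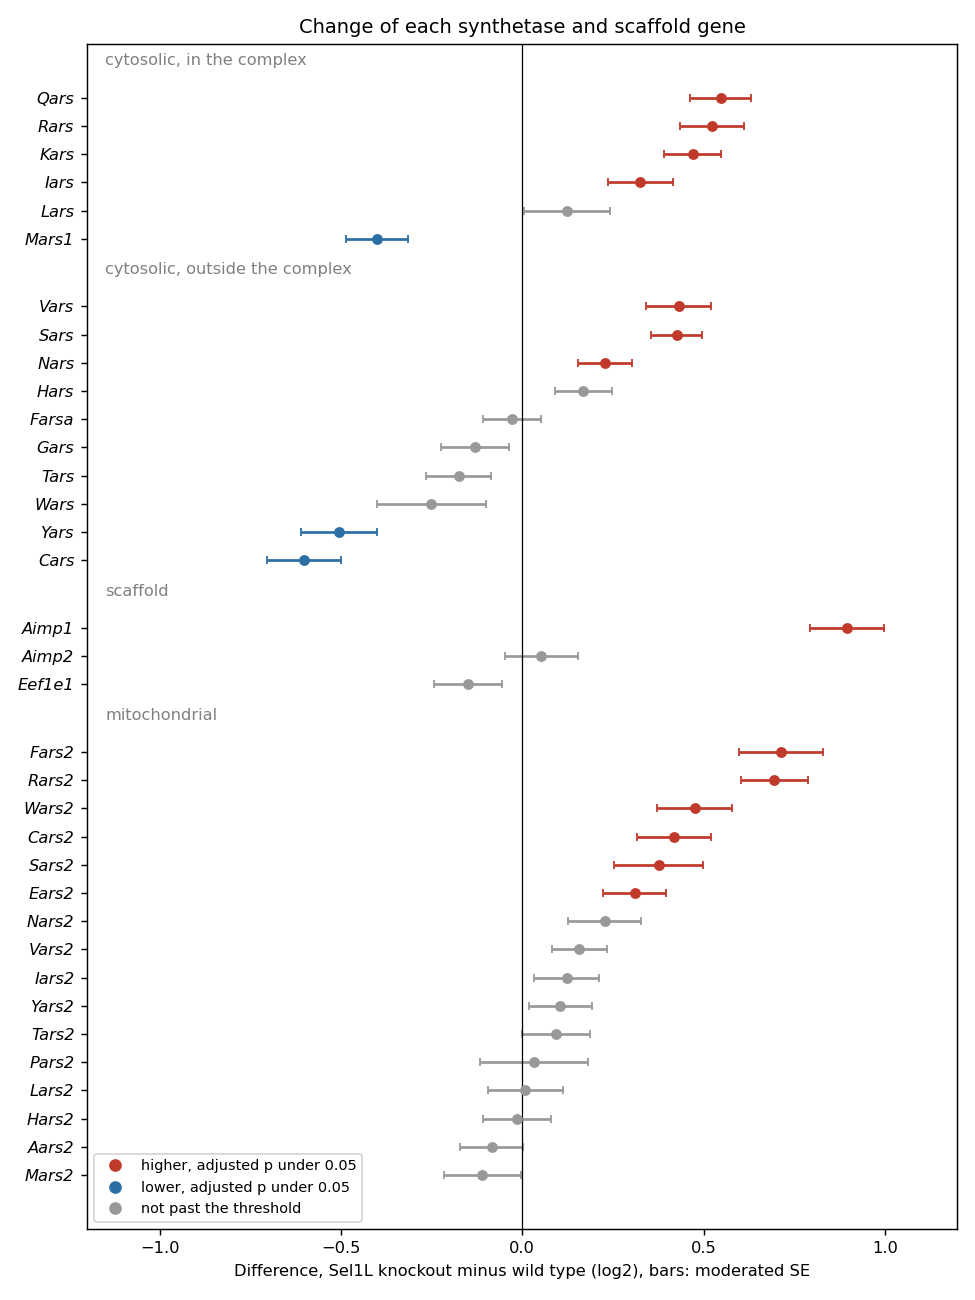
Difference of each gene in log2 units, Sel1L knockout minus wild type, with its moderated standard error; red points passed the test as higher, blue as lower and grey did not pass. The cytosolic genes run from 0.55 for Qars down to -0.60 for Cars. No mitochondrial gene passed as lower, the lowest being Mars2 at -0.11. Of genes above the median level 10.8% passed as lower, and the difference between the sets was not tested.

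The genes with the ATF4 core in their window did not share a direction. Only 9 of 16 cytosolic synthetases had a window, so whether the others hold the core is not known here. Iars rose by 0.33, Yars differed by -0.51, and Gars and Tars differed by -0.13 and -0.17 without passing the test. The stretches of Iars, Tars and Yars printed above carry the same 8 letters, TGATGCAA, which lie on the strand of the gene in Yars and on the opposite strand in Iars and Tars. For comparison, Atf4 rose by 0.52 (SE 0.101, adjusted p = 0.00547), with 8.21, 8.20, 8.36 and 8.39 on the knockout arrays, against 7.54, 7.93, 7.76 and 7.86 on the wild type arrays. Of 9 measured genes of the amino acid and stress response 5 were higher and 2 lower, where 28.7% of all genes and 38.6% of those above the median level passed in either direction. Chac1 (-0.23) and Eif2ak3 (-0.14) did not pass. Trib3, whose product is a pseudokinase, rose by 3.72, Cebpg, a dimer partner of ATF4, by 0.94, and Ppp1r15a, which restores translation after eIF2 phosphorylation, by 1.04. Nupr1 rose by 0.50 (SE 0.0874, adjusted p = 0.00291). Asns, the asparagine synthetase gene, differed by -0.44 (SE 0.0745, adjusted p = 0.00247), and Eif2ak4, the gene of the amino acid sensor kinase GCN2, by -0.39 (adjusted p = 0.0116).

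Among mitochondrial synthetases, the largest rises were those of the phenylalanine and arginine enzymes. Fars2 read 7.36, 7.61, 7.66 and 7.64 on the knockout arrays, against 6.76, 6.84, 6.68 and 7.14 on the wild type arrays. No value overlapped, and the rise was 0.71 (SE 0.117, adjusted p = 0.00219), or 1.64-fold. Rars2, the mitochondrial arginyl enzyme, whose gene is mutated in a form of pontocerebellar hypoplasia in humans, read 7.74, 7.86, 7.84 and 7.79 on the knockout arrays, against 6.89, 7.26, 7.12 and 7.19 on the wild type arrays. It rose by 0.69 (SE 0.0926, adjusted p = 0.000755), and this and the rise of Fars2 are the 2 mitochondrial calls that passed in every setting.

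Wars2, for tryptophan, read 6.70, 6.68, 6.59 and 6.61 on the knockout arrays, against 6.06, 6.11, 6.04 and 6.46 on the wild type arrays. Wild type replicate 4 lay close to the knockout values, and the rise was 0.48 (SE 0.103, adjusted p = 0.00850). Cars2, for cysteine, read 7.19, 7.34, 7.36 and 7.30 on the knockout arrays, against 6.64, 7.07, 6.86 and 6.95 on the wild type arrays. It rose by 0.42 (SE 0.101, adjusted p = 0.0138) with groups apart. After quantile normalization both missed the threshold (adjusted p = 0.0511 for Wars2 and 0.104 for Cars2), and Cars2 also after cyclic loess (0.0687).

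Sars2, for serine, read 6.54, 6.51, 6.74 and 6.77 on the knockout arrays, against 6.35, 6.44, 5.93 and 6.35 on the wild type arrays. Wild type replicate 3 was the low one, and the rise of 0.38 (adjusted p = 0.0454) was 0.26 without it (adjusted p = 0.0707). Ears2, for glutamate, read 6.68, 6.82, 6.93 and 6.82 on the knockout arrays, against 6.61, 6.57, 6.46 and 6.37 on the wild type arrays, a rise of 0.31 (adjusted p = 0.0262). These 2 calls were the least stable of the set, being lost in 11 of 16 settings for Sars2 and in 9 for Ears2. With the replicate number as a block they and Nars were lost (adjusted p = 0.0809 for Sars2, 0.0636 for Ears2 and 0.106 for Nars).

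The other 10 mitochondrial genes had differences between -0.11 for Mars2 and 0.23 for Nars2. Vars2, for valine, did not pass the test (0.16, adjusted p = 0.143) although its knockout values, 6.74 to 6.83, all lay above its wild type values, 6.48 to 6.70. Of the 35 members 18 had groups that did not overlap, against 32.2% of all genes. Most members lay above the median level, and no such share was computed for genes above it. Pars2, for proline, lay below the median level of every array, so little can be read from its difference of 0.03.

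For 13 amino acids both a cytosolic and a mitochondrial gene were measured, and the log2 ratio between them was taken on each array. The level of one feature cannot be set against that of another, but the change of their ratio shows unequal change. In 6 of 13 pairs the knockout ratios did not overlap the wild type ratios. Groups did not overlap for 32.2% of all genes taken singly, and no such share was computed for ratios of other genes, so the count is not shown to be particular to these pairs. The cytosolic gene was lower relative to its mitochondrial partner for cysteine, phenylalanine, tryptophan, tyrosine and methionine, and higher for valine.

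The cysteine pair, Cars to Cars2, had ratios of 0.55, 0.62, 0.57 and 0.73 on the knockout arrays, against 1.78, 1.67, 1.67 and 1.43 on the wild type arrays. This was the largest shift, -1.02 in log2 units or 2.03-fold, because Cars fell and Cars2 rose. The phenylalanine pair, Farsa to Fars2, had ratios of 0.65, 0.41, 0.39 and 0.53 on the knockout arrays, against 1.28, 1.39, 1.37 and 0.91 on the wild type arrays. Its shift of -0.74 came with a rise of Fars2 and a difference of -0.03 for Farsa, the catalytic subunit of the cytosolic enzyme.

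The tryptophan pair, Wars to Wars2, had ratios of 3.95, 4.19, 4.13 and 3.98 on the knockout arrays, against 4.92, 4.42, 5.28 and 4.52 on the wild type arrays. Its shift was -0.73, and the wild type ratios were spread more widely than in the 3 other pairs with shifts of over 0.5. The tyrosine pair, Yars to Yars2, had ratios of 1.54, 1.69, 1.77 and 1.79 on the knockout arrays, against 2.45, 2.42, 2.17 and 2.19 on the wild type arrays. It shifted by -0.61, with Yars lower and Yars2 at a difference of 0.11. The methionine pair, Mars1 to Mars2, shifted by less (-0.29). Its ratios were 2.34 to 2.581 on knockout arrays and 2.582 to 2.81 on wild type arrays, so the groups were barely apart. Its groups overlapped after quantile normalization and cyclic loess, where the shift was -0.22 and -0.27.

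The valine pair, Vars to Vars2, went the other way. Its ratios were 2.73, 2.95, 2.83 and 2.69 on the knockout arrays, against 2.46, 2.50, 2.64 and 2.50 on the wild type arrays, a shift of 0.27. In each of these 6 pairs a two-sided exact permutation test gave p = 0.0286, the lowest value that 4 against 4 arrays allow. Ratios that do not overlap always give this value, so it restates the separation and adds nothing to it. After Benjamini-Hochberg adjustment over the 13 pairs 0 passed (lowest adjusted p = 0.0619 by this exact test). At this lowest value, whether any pair could pass depended on how many pairs were apart. When the 13 ratios were fitted with limma beside all genes, a test chosen after seeing the data, the same 6 passed, with adjusted p from 0.000102 for cysteine to 0.0379 for valine.

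For arginine both genes rose, Rars by 0.52 and Rars2 by 0.69, and the ratio shifted by -0.17 with overlapping groups (95% interval of the limma fit -0.41 to 0.07, exact p = 0.200). For serine Sars rose by 0.43 and Sars2 by 0.38 (shift 0.05, interval -0.21 to 0.31, exact p = 0.743). The asparagine ratio, Nars to Nars2, had a shift near 0 with an interval of -0.27 to 0.27, which does not show that both genes changed equally. The leucine, histidine, isoleucine and threonine ratios overlapped between groups, with shifts of 0.12 (interval -0.29 to 0.52), 0.18 (-0.0059 to 0.37), 0.20 (0.03 to 0.38) and -0.27 (-0.52 to -0.02). For isoleucine the groups became apart after quantile normalization (0.28) and cyclic loess (0.27).

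**Figure D3:**
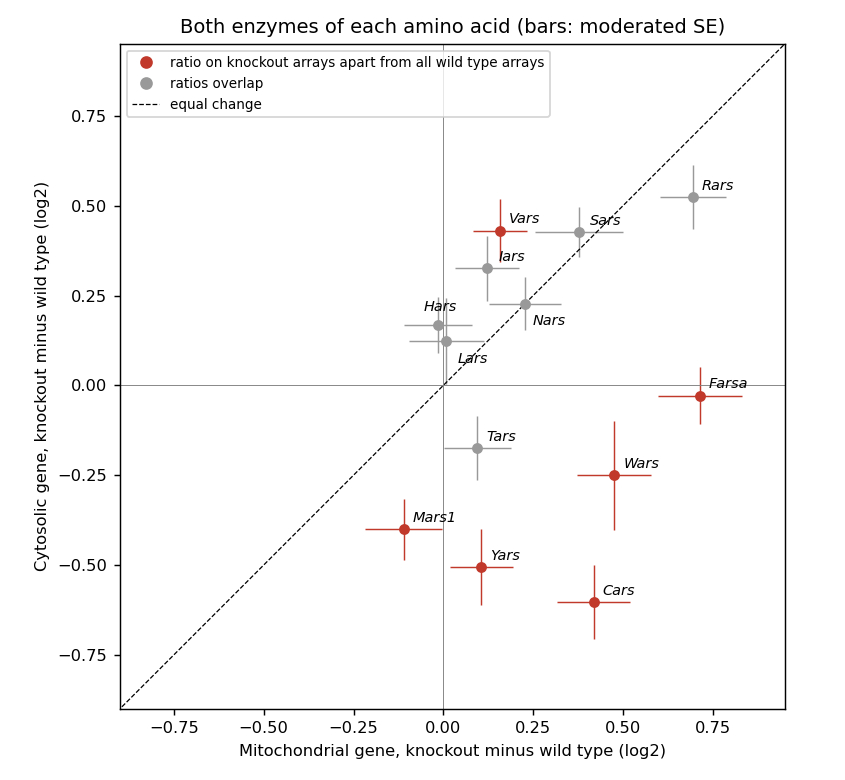
Change of the cytosolic gene (vertical) against that of the mitochondrial gene (horizontal) for 13 amino acids, both in log2 units as Sel1L knockout minus wild type, with moderated standard errors and a dashed line of equal change. Red pairs had ratios that did not overlap between groups; Cars, Farsa, Wars, Yars and Mars1 lie below the line and Vars above it.

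**Figure D4:**
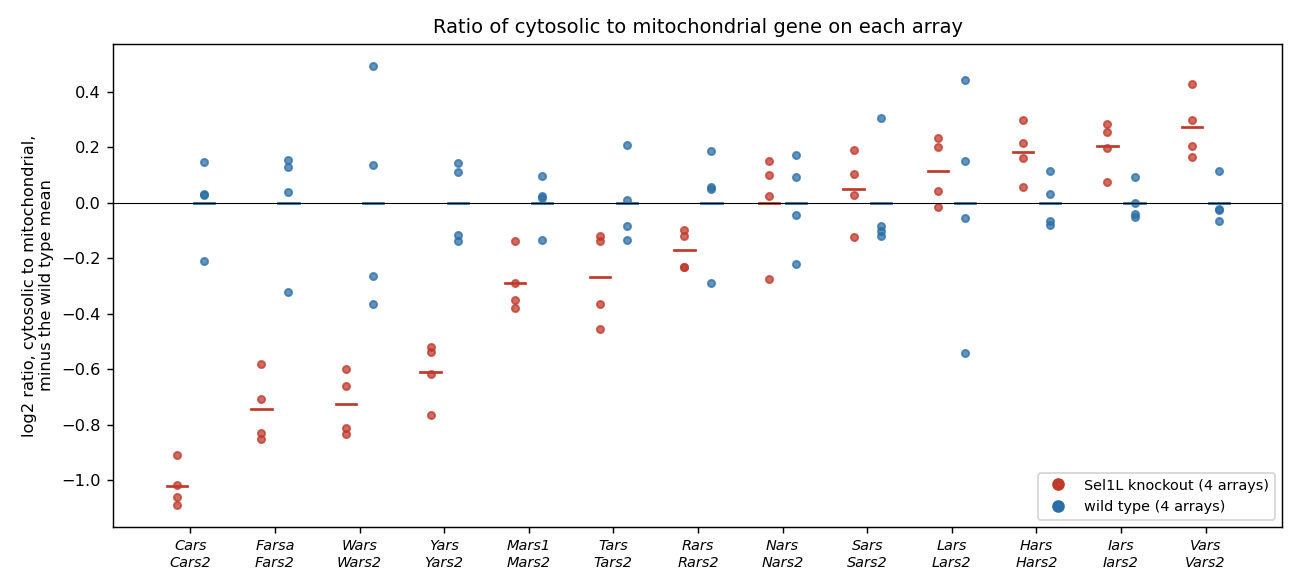
Log2 ratio of cytosolic to mitochondrial gene on each array, less the wild type mean of that pair, with the 4 Sel1L knockout arrays (red) left of the 4 wild type arrays (blue) and lines for means. Pairs are ordered from the cysteine pair at -1.02 to the valine pair at 0.27.

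Of 12 other measured genes of aminoacyl-tRNA formation outside the name rule, 5 rose and 0 fell. This share of calls, 41.7%, was near the 38.6% of genes above the median level, against 28.7% of all genes. Eprs rose by 0.89 (SE 0.0979, adjusted p = 0.000274), a change close in size to that of Aimp1. Pstk, the kinase that phosphorylates seryl-tRNA on the way to selenocysteine, read 5.60, 5.80, 5.83 and 5.78 on the knockout arrays, against 4.62, 4.89, 4.61 and 4.71 on the wild type arrays. It rose by 1.04 (SE 0.0925, adjusted p = 9.26e-05), while Sepsecs, the next enzyme of that route, differed by -0.15 and did not pass. All wild type values of Pstk lay below the lowest array median, 4.94, so the size of its rise is less certain. Pstk was not among the genes above the median level.

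Gatb, a subunit of the amidotransferase that makes glutaminyl-tRNA in mitochondria from the product of Ears2, read 6.06, 6.24, 6.22 and 6.24 on the knockout arrays, against 5.39, 5.63, 5.71 and 5.66 on the wild type arrays. It rose by 0.59 (SE 0.0921, adjusted p = 0.00166), whereas the other 2 subunits, Qrsl1 and Gatc, had differences of 0.18 and 0.14 that did not pass. Dtd1, a deacylase that clears D-amino acids from tRNA, rose by 0.61 (SE 0.127, adjusted p = 0.00716). Aarsd1, an editing protein for mischarged alanine tRNA, rose by 0.37 (SE 0.0916, adjusted p = 0.0154), a call that was lost after quantile normalization and cyclic loess.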

How the data were processed

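RNA of 4 Sel1L knockout and 4 wild type pancreas samples was measured on 8 arrays. The deposited values were made by the authors with RMA (the submitters' processing notes name this multi-array summary) and are taken as log2 because RMA and their range (0.964 to 14.4) imply it; the sources used here give no version, chip definition or build. Array medians were 4.94 to 5.05. Of 35556 features 21218 had 1 gene symbol in GEO's platform annotation, 1881 several and 12457 none; features with several or none were left out. Of several features per gene the one with the highest mean was kept, giving 18820 genes, with no filter on dim genes.

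The 2 groups were compared over all genes in R 4.3.3 by limma 3.58.1, using lmFit and eBayes with 6 residual degrees of freedom, with Benjamini-Hochberg adjustment; differences are knockout minus wild type with moderated standard errors. The number of arrays limits the precision. Ratios of cytosolic to mitochondrial genes were tested by exact permutation over arrays. The code was tested on simulated data with 200 changed genes. The alternatives were quantile normalization, centring on array medians, cyclic loess, the mean of a gene's features, only genes above the median level, trend and robust variance, array weights, a replicate block and leaving out each array. Every member past the threshold was named, with values on every array for at most 10 cytosolic and 6 mitochondrial ones and the 3 scaffold genes; array values of Lars and Wars were added after they were seen, as were the promoter motifs other than the ATF4 core. Members and lists were chosen with earlier results of these data known. Promoter windows are from RefSeq (GRCm38.p6); no genome position of the array features was used. The plots come from matplotlib 3.10.9 (Python 3.11.15).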

Additional observations from a re-analysis of the deposited data

Results flagged for a closer look

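In 7 of 122 groups of 4 arrays, 1 array lay far from the other 3 by Dixon's criterion (gap over range above the 95% critical value), where chance gives about 1 in 20. Sel1l was at 11.45 on knockout replicate 4, with the other knockout arrays at 11.66 to 11.70. Fars2 was at 7.36 on knockout replicate 1 (others 7.61 to 7.66), and Gatb at 6.06 on the same array (others 6.22 to 6.24). Farsa was at 8.22 on wild type replicate 2 (others 8.04 to 8.06), Wars2 at 6.46 on wild type replicate 4 (others 6.04 to 6.11) and Eprs at 8.82 on wild type replicate 1 (others 9.15 to 9.21). The log2 ratio of Sars to Sars2 was 3.76 on wild type replicate 3 (others 3.34 to 3.37).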

How the results depend on the processing

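Of 17 members called, 11 kept their call and direction under all 16 other settings. The rises of Nars, Sars2, Ears2, Iars, Cars2 and Wars2 did not. The cytosolic median difference, 0.15 on the deposited values, was 0.0288 after quantile normalization, 0.0693 after centring and 0.0145 after cyclic loess, and 0.0822 to 0.18 when 1 array was left out (lowest without wild type replicate 1). The mitochondrial median, 0.14, was 0.0262, 0.0634 and 0.0495 after the same 3 scalings and 0.13 to 0.16 with an array left out. Mitochondrial rises, 6 on the deposited values, numbered 2 after quantile normalization, 3 after cyclic loess and 4 to 6 with an array left out. Cytosolic rises numbered 5 to 7 and falls 3 to 4 throughout. Genes called over all genes were 3721 (without Sel1L knockout replicate 3) to 5227 with an array left out, against 5406.

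Directions that turned belonged to genes or ratios that did not pass the test. After quantile normalization the differences were -0.0649 for Aimp2, -0.0124 for Iars2, -0.153 for Lars2, -0.0705 for Tars2, -0.00994 for Vars2 and -0.0609 for Yars2, and the asparagine ratio shifted by 0.11. After centring they were -0.0241 for Aimp2, -0.0679 for Lars2 and -0.0432 for Pars2. After cyclic loess they were -0.0825 for Aimp2, -0.0153 for Iars2, -0.00189 for Lars, -0.118 for Lars2, -0.0512 for Tars2 and -0.0402 for Yars2, and the asparagine ratio shifted by 0.0656. With array weights Hars2 differed by 0.0078. With 1 array left out the ranges were -0.00277 to 0.121 for Aimp2, -0.0704 to 0.0745 for Lars2, -0.0714 to 0.148 for Pars2, -0.065 to 0.0159 for Farsa, -0.0601 to 0.0684 for Hars2, -0.0652 to 0.263 for the leucine ratio and -0.0734 to 0.0917 for the asparagine ratio. The cause was not tested.

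The number of pairs with ratios apart was 6 under the 3 scalings (isoleucine in place of methionine after quantile normalization and cyclic loess). Centring leaves every ratio shift unchanged. With an array left out the number was 6 to 9, 9 being without wild type replicate 2. Leaving out an array cannot make separate groups overlap, so this count could only stay or rise. With the replicate block, 14 members were called, and in 9 pairs all 4 same-numbered differences had 1 sign. Same-numbered arrays did not deviate together (correlations of 0.22, 0.15, -0.27 and -0.02), so the numbers were not taken to pair the samples.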

Other observations

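The 2 catalytic classes of synthetases, which have unrelated active site folds, were compared after the values had been seen. All 3 cytosolic falls, Cars, Mars1 and Yars, belong to class I, in which 4 of 9 cytosolic genes rose (Iars, Qars, Rars and Vars) and the other 2 (Lars and Wars) did not pass the test. Of 7 cytosolic class II genes 3 rose (Kars, Nars and Sars) and 0 fell. In the mitochondrial set 4 of 9 class I genes and 2 of 7 class II genes rose, and 0 fell in either. The median difference was 0.12 for cytosolic class I and 0.17 for cytosolic class II, and 0.16 and 0.09 for the mitochondrial classes. Among genes above the median level 27.9% passed as higher and 10.8% as lower, against 16.1% and 12.6% over all genes. The counts by class are a description, and the difference between classes was not tested.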
